A study of Mus musculus with 6 samples.

Results

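Canonical Wnt effectors and targets were followed as 10 genes in the RNA-seq counts of epiblast-like cells (EpiLCs): the signal transducer Ctnnb1, the DNA-binding partners Tcf7, Tcf7l1, Tcf7l2 and Lef1, the target genes Axin2, Sp5 and Dkk1, the ligand Wnt3 and the receptor Lgr4. They were chosen by name, through the Ensembl identifier of each row, from the 55416 genes of the count table, and each of the 10 had a row. Of these, 9 passed a filter on low counts that kept 15746 genes, and Sp5 did not. EpiLCs are mouse cells in a formative state of pluripotency, between the naïve state of embryonic stem cells and a state primed to differentiate. WT EpiLCs came from the parental 46C line, in which GFP reports the neural gene Sox1. Oct6-KO EpiLCs came from a single clone of that line, made with CRISPR/Cas9, that carries a homozygous frameshift insertion in the coding sequence of Oct6 (official symbol Pou3f1). With 1 clone, the loss of OCT6 and anything else particular to that clone cannot be told apart. Both lines were kept naïve in N2B27 medium with LIF, an inhibitor of MEK and the GSK3 inhibitor CHIR99021, and were then differentiated on fibronectin for 48 h in N2B27 with 1% KSR (a serum replacement), bFGF and Activin A. The sample labels give bFGF at 12 and Activin A at 20 ng/ml, and the study's text gives the same figures in µg/ml. There were 3 libraries of stranded, ribosome-depleted total RNA for each genotype, numbered 1 to 3, and the series' design text calls the replicates paired.

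In the canonical Wnt pathway a secreted Wnt protein binds a Frizzled receptor and an LRP co-receptor, which stops a complex of AXIN, APC, CK1 and GSK3 from marking β-catenin, the product of Ctnnb1, for destruction. Stabilised β-catenin enters the nucleus and joins the TCF/LEF proteins on DNA, where TCF7L1 (also called TCF3) acts mainly as a repressor and TCF7 and LEF1 mainly as activators. In naïve mouse stem cells the GSK3 inhibitor of the culture medium stands in for the Wnt signal, and TCF7L1 is known for holding down genes of the naïve state. The comparison addressed which of these genes differed in expression between WT and Oct6-KO EpiLCs.

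Of the 9 members tested, 1 passed the test. Tcf7l1 was lower in KO EpiLCs, to 0.698 of the WT level, and no member was higher. Over all genes tested, 24.3% were called, 12.5% lower and 11.8% higher in KO, and 1 lower member of 9 did not stand above that background. The median log2 fold change of the 9 members was −0.01 and their median absolute log2 fold change 0.22, beside 0.001 and 0.23 over all genes tested. Levels are given as CPM, library-scaled counts relative to TMM-normalized library sizes, and fold changes as KO over WT on the log2 scale. A gene was called at an adjusted p below 0.1 in the quasi-likelihood test of edgeR, adjusted by Benjamini-Hochberg over all genes tested and written below as the edgeR adjusted p. The members' level in each library is plotted first, and their fold changes after it.

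**Figure D1:**
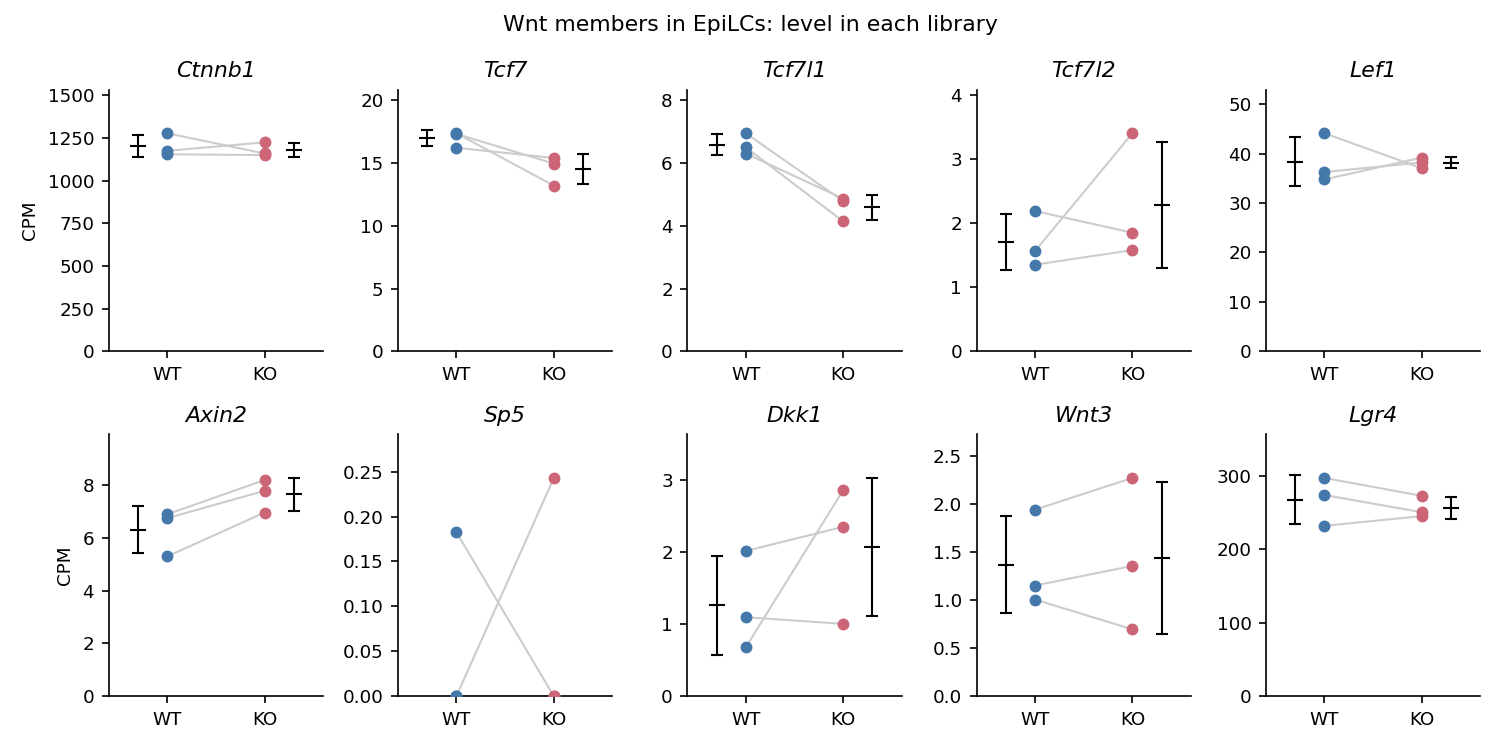
Level of the 10 members in CPM (vertical axes, each starting at 0) in WT (blue) and Oct6-KO (red) EpiLCs, with 1 point per library, grey lines joining libraries of the same number, and a black mark with bars for the mean ± SD of 3 libraries (not drawn for Sp5, which was not tested). The WT and KO points are apart for Tcf7, Tcf7l1 and Axin2 and overlap for the other members.

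The libraries held between 10995505 and 14680930 counts and their TMM factors ran from 0.974 to 1.02. Pou3f1, the targeted gene, stood at 161, 143 and 122 CPM in the WT libraries and at 127, 141 and 128 CPM in the KO libraries, with a log2 fold change of −0.10 and an edgeR adjusted p of 0.574; a count per gene cannot tell inserted from uninserted transcripts, so it does not check the label. All 7 EpiLC markers passed the filter, with a summed level of 3048 to 3397 CPM in WT and 3071 to 3233 CPM in KO, and Sox2, Fgf5 and Otx2 were higher in KO. The largest parts of that sum were Dnmt3b and Pou5f1, at 1563 and 898 CPM on average in WT. No naïve cells were sequenced beside them, so these levels do not tell EpiLCs from naïve cells. Among markers of other cells, the neural genes Sox1 and Nes (of 3 tested), the trophoblast gene Krt7 (of 2) and the fibroblast gene Thy1 (of 3) were lower in KO. Gata6 and Pdgfra, of 4 extraembryonic endoderm genes tested, were called higher, the second at an edgeR adjusted p of 0.0991 and in 6 of 13 alternatives, and the 6 genes of that list summed to 6.11 to 8.06 CPM in WT and 6.17 to 17.6 CPM in KO. In bulk RNA, fewer cells of a type and less RNA per cell cannot be told apart, and the part of such cells in the differences below was not tested.

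Sequences of the 250 bases before the start of each gene's canonical transcript were searched on both strands for the words CTTTGAT and CTTTGAA, which TCF/LEF proteins are known to bind, and for the octamer ATGCAAAT, bound by POU proteins such as OCT6. Either TCF/LEF word stood before 3 of the 10 members, and before 6.15% of the 15694 genes tested with such a sequence. CTTTGAT alone was found before 2.45% of all genes and CTTTGAA before 3.79%. No member held the octamer in this window, which 1.5% of all genes did. The median GC content of the windows was 55.6%, against 52.0% for Tcf7l1, 72.0% for Axin2 and 46.0% for Sp5. The matches are shown in lower case with the word in capitals, from GRCm39 and read 5′ to 3′ on the strand of the gene, because the genes that hold them are the repressor of the TCF/LEF family and a pair of widely used Wnt target genes.
Tcf7l1, chr6:72766705-72766727, minus strand, word on the other strand 130 bases before the start: caacttgtTTCAAAGtgtcacaa
Axin2, chr11:108811608-108811630, plus strand, 22 bases before the start: gctcgcgcCTTTGAAgtgcacag
Sp5, chr2:70305155-70305177, plus strand, 104 bases before the start: aaggccccCTTTGATcaggaaaa

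Tcf7l1 is the member that was called, and its whole window, chr6:72766590-72766839 on the minus strand, is given with the same word in capitals.
Tcf7l1: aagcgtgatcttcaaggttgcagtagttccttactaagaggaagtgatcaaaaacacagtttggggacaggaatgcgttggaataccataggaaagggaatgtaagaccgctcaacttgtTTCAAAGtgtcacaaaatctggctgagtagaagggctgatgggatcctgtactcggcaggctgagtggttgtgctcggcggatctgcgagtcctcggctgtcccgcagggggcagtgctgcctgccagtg

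Ctnnb1 (ENSMUSG00000006932.19, chr9:120757422-120789579, plus strand) encodes β-catenin and was the most abundant member per length of exon. It stood at 1175, 1278 and 1154 CPM in the WT libraries and at 1224, 1159 and 1150 CPM in the KO libraries. The groups overlapped and 1 of 3 same-numbered pairs was higher in KO. The log2 fold change was −0.03 (SE 0.092, 95% confidence interval −0.22 to 0.16, edgeR adjusted p = 0.872), an interval that leaves room for a small change in either direction at the level of RNA. Protein level and location, through which β-catenin is mainly controlled, are not measured by these counts.

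Tcf7l1 (ENSMUSG00000055799.15, chr6:72603354-72766589, minus strand) stood at 6.94, 6.30 and 6.49 CPM in WT and at 4.78, 4.86 and 4.14 CPM in KO, from 55 to 96 counts per library. All 3 KO libraries lay below all 3 WT libraries. The log2 fold change was −0.52 (SE 0.21, 95% confidence interval −0.95 to −0.08, edgeR adjusted p = 0.0923). This call was lost in 9 of 14 alternatives, among them DESeq2 with and without a replicate block (adjusted p = 0.264 and 0.144) and each omission of a library, while the fold change stayed between −0.56 and −0.45. The edgeR fit with a replicate block kept it (edgeR adjusted p = 0.0626).

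The genes around Tcf7l1 were also lower in KO EpiLCs. Of the 46 other genes tested within 5 Mb, 40 had a log2 fold change below 0, 29 were called lower and 1 higher. Their median log2 fold change was −0.53, with quartiles at −0.87 and −0.34, so that Tcf7l1 differed from the median of its neighbours by 0.01 and 23 of the 46 lay further below. Across chromosome 6 the median over 773 genes tested was −0.40. For the other tested members the median of the neighbours within 5 Mb ran from −0.10 at Wnt3 to 0.16 at Lgr4. What the region and the gene each contribute to the lower Tcf7l1 was not tested.

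**Figure D2:**
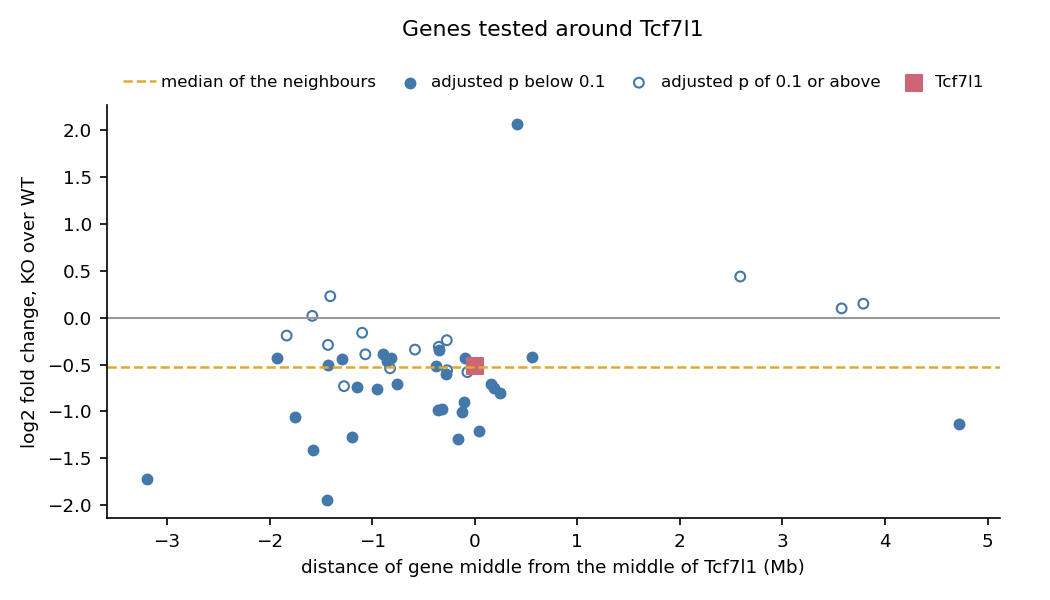
Log2 fold change (KO over WT, vertical axis) of the genes tested within 5 Mb of Tcf7l1, by the distance of each gene's middle from that of Tcf7l1 (horizontal axis, Mb). Filled circles are genes at an adjusted p below 0.1, open circles the other genes, the red square is Tcf7l1, and the dashed line, at −0.53, is the median of the neighbours, on which Tcf7l1 lies.

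**Figure D3:**
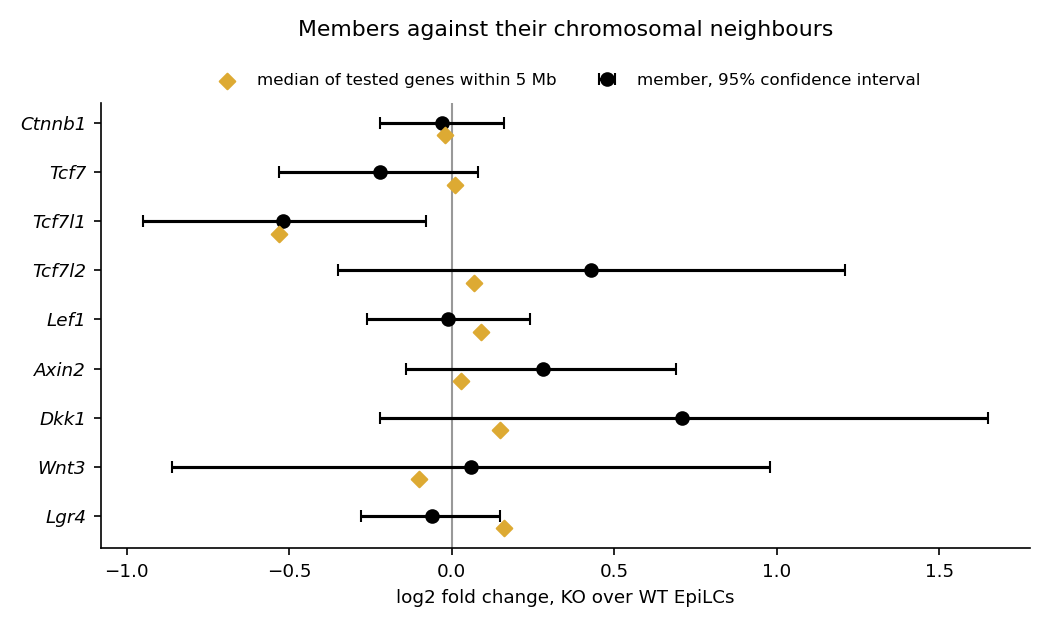
Log2 fold change (KO over WT, horizontal axis) of the 9 members tested, as black points with the 95% confidence interval, beside the median of the genes tested within 5 Mb of each (yellow diamonds). The interval leaves out 0 for Tcf7l1 alone, and the Tcf7l1 point lies on the diamond of its neighbours.

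Tcf7 (ENSMUSG00000000782.18, chr11:52143107-52174619, minus strand), which encodes TCF1, stood at 17.4, 17.3 and 16.2 CPM in WT and at 13.2, 14.97 and 15.4 CPM in KO. Every KO library was below every WT library, a separation that 33.7% of all genes tested showed in either direction and that 3 of the 9 tested members showed (Tcf7, Tcf7l1 and Axin2). The log2 fold change of −0.22 (SE 0.14, 95% confidence interval −0.53 to 0.08, edgeR adjusted p = 0.329) did not pass the test. Lef1 (ENSMUSG00000027985.16, chr3:130903919-131018005, plus strand) stood at 44.1, 34.8 and 36.3 CPM in WT and at 37.0, 39.2 and 38.2 CPM in KO. Its groups overlapped, with a single high WT library, and the log2 fold change was −0.01 (SE 0.12, 95% confidence interval −0.26 to 0.24, edgeR adjusted p = 0.969). Tcf7l2 (ENSMUSG00000024985.23, chr19:55730188-55922091, plus strand), which encodes TCF4, had 20 to 42 counts per library, or 1.57, 2.19 and 1.35 CPM in WT and 3.40, 1.85 and 1.58 CPM in KO. Library KO 1 carried the higher KO mean: the log2 fold change was 0.43 (SE 0.37, 95% confidence interval −0.35 to 1.21, edgeR adjusted p = 0.486) with it and 0.02 without it.

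Per length of exon, which allows levels of different genes to be compared, Tcf7 and Lef1 made up most TCF/LEF RNA in both genotypes. Of the summed RPKM (CPM divided by the kilobases of exon) of the 4 genes, Tcf7 took 44.4 ± 2.25% in WT and 42.0 ± 2.36% in KO (SD, n = 3). Lef1 took 41.1 ± 2.75% and 45.4 ± 0.257%, and Tcf7l2 1.91 ± 0.529% and 2.85 ± 1.32%. The share of the repressor Tcf7l1 was 12.4%, 12.5% and 13.1% in the WT libraries and 10.5%, 10.1% and 8.74% in the KO libraries, without overlap. The summed level of the 4 genes was 9.98 ± 0.676 RPKM in WT and 9.00 ± 0.274 RPKM in KO (SD, n = 3). These shares follow from the levels above and were not tested separately.

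**Figure D4:**
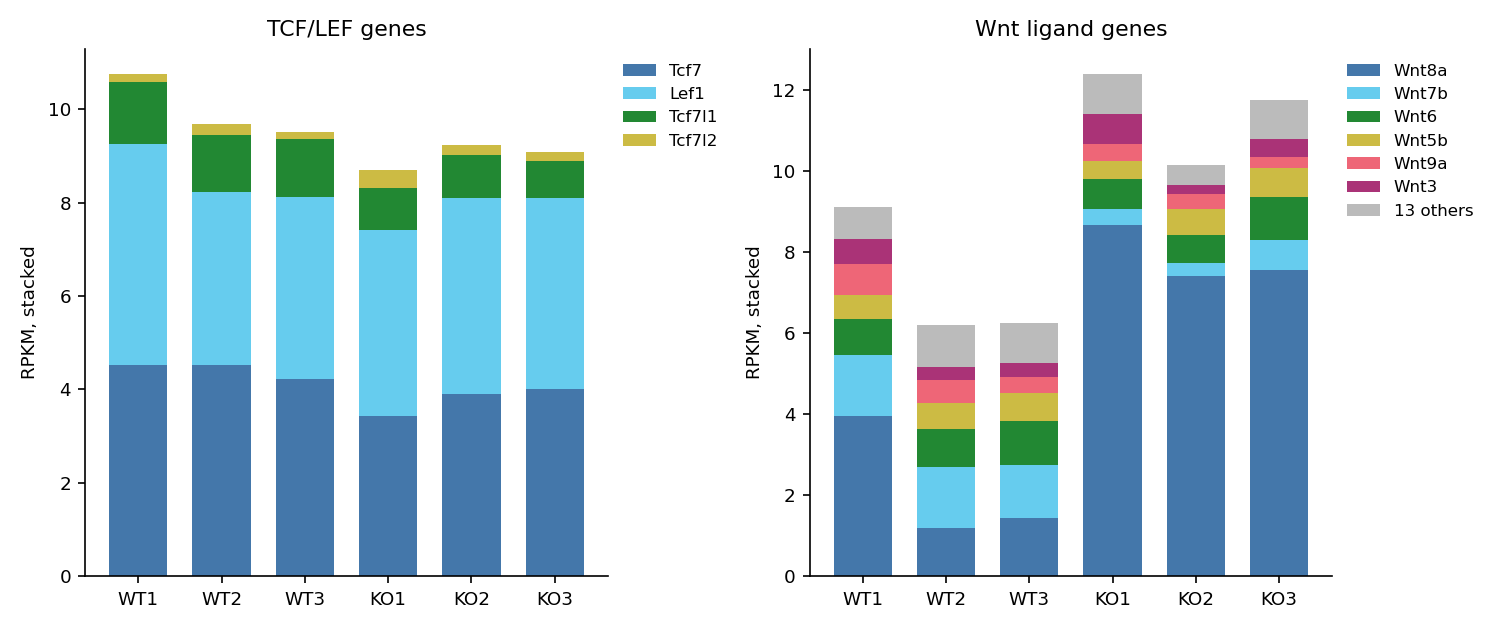
Stacked RPKM (vertical axes, from 0) in each of the 3 WT and 3 KO libraries, for the 4 TCF/LEF genes (left) and for 19 Wnt ligand genes (right, with 13 minor ligands summed in grey). The Tcf7l1 layer is thinner in all 3 KO libraries, and Wnt8a is the thickest ligand layer in every KO library, at 64.3% to 72.9% of the ligand total.

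Axin2 (ENSMUSG00000000142.17, chr11:108811169-108841609, plus strand), a target that encodes a negative feedback scaffold of the pathway, stood at 5.30, 6.75 and 6.90 CPM in WT and at 6.97, 7.79 and 8.20 CPM in KO. The KO libraries all lay above the WT libraries, the nearest by less than 0.1 CPM, and all 3 same-numbered pairs were higher in KO. The log2 fold change of 0.28 (SE 0.20, 95% confidence interval −0.14 to 0.69, edgeR adjusted p = 0.379) did not pass the test. Sp5 (ENSMUSG00000075304.4, chr2:70305267-70308073, plus strand), a zinc finger factor and direct Wnt target, had 0, 2 and 0 counts in the WT libraries and 3, 0 and 0 counts in the KO libraries, at or under 3 counts in each, so no difference was detectable at this depth. Dkk1 (ENSMUSG00000024868.9, chr19:30523263-30527065, minus strand), a secreted inhibitor that binds LRP5 and LRP6 and is itself a Wnt target, had 10 to 38 counts per library. Its level was 2.02, 1.10 and 0.676 CPM in WT and 2.35, 1.00 and 2.86 CPM in KO, and the groups overlapped. The log2 fold change was 0.71 (SE 0.45, 95% confidence interval −0.22 to 1.65, edgeR adjusted p = 0.307), and leaving out a library moved it between 0.39 (without WT 3) and 1.25 (without WT 1, the omission that gave a call, with an edgeR adjusted p of 0.0988).

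Wnt3 (ENSMUSG00000000125.7, chr11:103664976-103708853, plus strand), the ligand that starts primitive streak formation in the embryo, had 9 to 28 counts per library. It stood at 1.94, 1.00 and 1.15 CPM in WT and at 2.27, 0.694 and 1.35 CPM in KO, with the library of number 1 the highest in each genotype. The log2 fold change was 0.06 (SE 0.44, 95% confidence interval −0.86 to 0.98, edgeR adjusted p = 0.949), so that neither a rise nor a fall of moderate size could be seen at this depth. Lgr4 (ENSMUSG00000050199.15, chr2:109747839-109844609, plus strand), the receptor through which R-spondins protect Frizzled proteins from removal, stood at 232, 274 and 297 CPM in WT and at 245, 251 and 273 CPM in KO. Its groups overlapped, and the log2 fold change was −0.06 (SE 0.10, 95% confidence interval −0.28 to 0.15, edgeR adjusted p = 0.743).

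In WT EpiLCs the members fell into the order Ctnnb1 (147 RPKM), Lgr4 (36.0), Tcf7 (4.42), Lef1 (4.11), Tcf7l1 (1.26), Axin2 (0.911), Dkk1 (0.520), Wnt3 (0.434), Tcf7l2 (0.190) and Sp5 (0.0285 RPKM). Neighbours in this order whose WT libraries overlapped were Tcf7 and Lef1, Axin2 and Dkk1, and Dkk1 and Wnt3. Ctnnb1 and Lgr4, the transducer and the receptor, stood apart from the transcription factors and targets among the members in both genotypes. In KO EpiLCs Tcf7l1 stood at 0.881 RPKM and Axin2 at 1.10 RPKM, so that their order turned round, with no overlap between the libraries of these genes in either genotype. That change of order was not tested, and it depends on the exon lengths used. Axin2 did not pass the test between genotypes, and the Tcf7l1 call was lost in 9 of 14 alternatives. Wnt3 and Tcf7l2, at 0.457 and 0.254 RPKM, overlapped in KO and not in WT.

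Around the members, 101 other genes of the pathway were listed by role, of which 73 passed the filter and 18 were called, 9 higher and 9 lower in KO. That is 24.7% of those tested, close to the 24.3% of all genes, and their median log2 fold change was −0.08. These shares are those of the fit without a replicate block. In edgeR with the block, 26 of the 73 genes and 4764 of all 15746 were called. Of the 18, Gsk3b and Crebbp lie on chromosome 16, where the median log2 fold change of 471 genes tested was 0.55. The R-spondin axis (3 of 8 genes tested) and ligand secretion (both genes tested) held no call, nor a gene at an unadjusted p below 0.05.

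**Figure D5:**
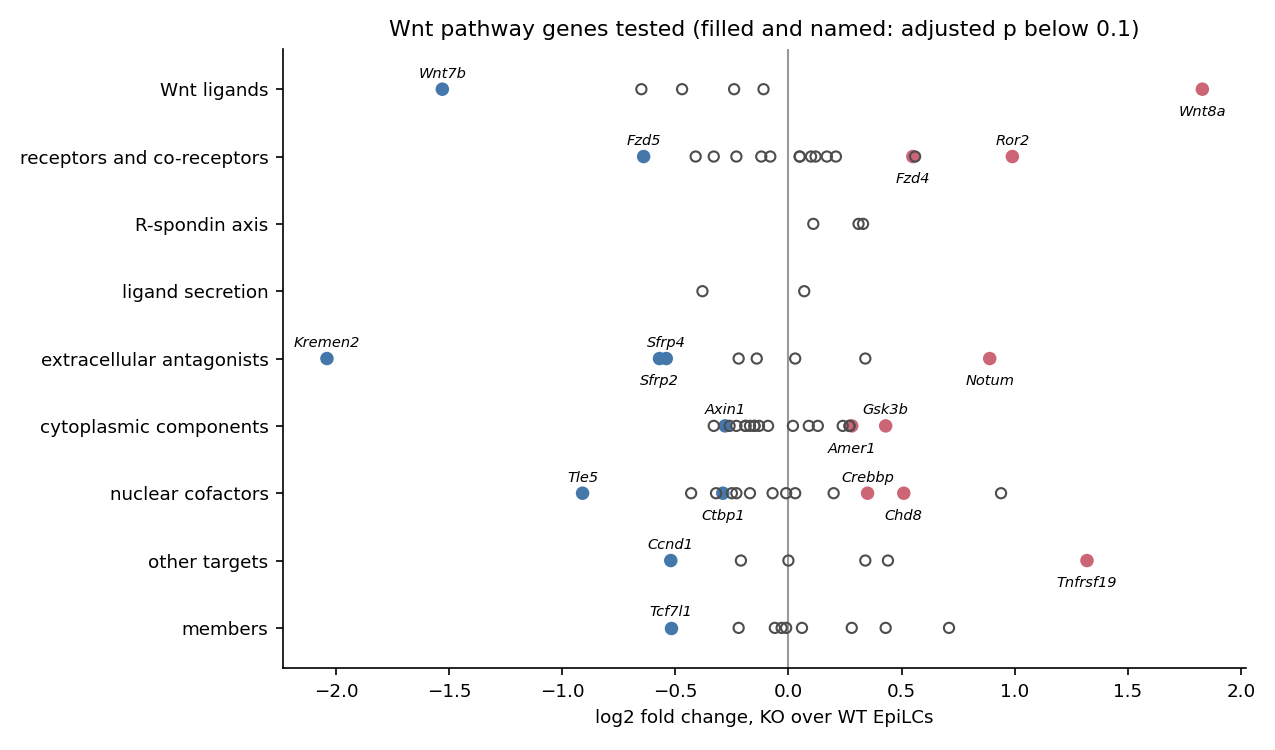
Log2 fold change (KO over WT, horizontal axis) of every tested gene of the 8 pathway lists and of the members (rows). Filled and named points had an adjusted p below 0.1, blue for lower and red for higher in KO, and open points did not; the 18 named pathway genes lie on both sides of 0.

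Of 18 further Wnt ligand genes, 6 were tested and 2 were called, in opposite directions. Wnt8a, a ligand of the epiblast and early streak, stood at 7.24, 2.19 and 2.64 CPM in WT and at 15.9, 13.6 and 13.8 CPM in KO. Its log2 fold change was 1.83 (SE 0.29, edgeR adjusted p = 1.8e-04), and it was 2.56 without library WT 1, the highest of the WT libraries. Wnt7b, a ligand active in many epithelia, stood at 7.69, 7.67 and 6.63 CPM in WT and at 2.03, 1.70 and 3.84 CPM in KO. No KO library reached the WT range, and the log2 fold change was −1.53 (SE 0.27, edgeR adjusted p = 5.4e-04). Of the summed ligand RPKM, Wnt8a took 28.5 ± 12.9% in WT and 69.0 ± 4.39% in KO, Wnt7b took 20.4 ± 3.84% and 4.27 ± 1.82% (SD, n = 3), and the member Wnt3 stood at 5.93 ± 0.814% and 3.89 ± 1.83%. The sum over the 19 ligand genes was 7.18 ± 1.67 RPKM in WT and 11.4 ± 1.15 RPKM in KO (SD, n = 3), with every KO library above every WT library. Wnt8a alone stood at 2.2 ± 1.5 RPKM in WT and 7.9 ± 0.69 RPKM in KO (SD, n = 3). Wnt3 itself stood at 0.434 ± 0.160 and 0.457 ± 0.251 RPKM. The shares and the sum follow from the levels of the single genes, depend on the exon lengths used and were not tested separately.

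All 15 receptors and co-receptors were tested, and 3 were called. Fzd5 was lower in KO, at 29.4, 35.2 and 33.6 CPM in WT against 18.0, 23.1 and 21.7 CPM in KO, with a log2 fold change of −0.64 (SE 0.13, edgeR adjusted p = 0.00191). Ror2, a receptor known mainly for non-canonical Wnt signals, was higher, at 5.64 ± 0.857 CPM in WT and 11.2 ± 3.33 CPM in KO (SD, n = 3; log2 fold change 0.99, edgeR adjusted p = 0.00349). Fzd4 was called higher (log2 fold change 0.55, edgeR adjusted p = 0.0740), a call lost in 7 of 14 alternatives. The most abundant Frizzled gene per length, Fzd7, took 41.4 ± 2.24% of the summed Frizzled RPKM in WT and 44.7 ± 1.70% in KO, and Fzd5 took 11.3 ± 0.770% and 6.96 ± 0.756% (SD, n = 3). These shares too depend on the exon lengths used. Neither co-receptor passed the test, with log2 fold changes of −0.12 for Lrp5 and −0.08 for Lrp6.

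Among 14 extracellular antagonists, 8 were tested, and 3 were lower and 1 higher in KO. Kremen2, a receptor for the DKK proteins, had the largest fold change of the pathway genes tested: it stood at 2.16, 2.83 and 1.56 CPM in WT and at 0.486, 0.617 and 0.451 CPM in KO, a log2 fold change of −2.04 (SE 0.43, edgeR adjusted p = 0.00201). That fold change rests on few reads, 29, 31 and 23 counts in the WT libraries and 6, 8 and 6 in the KO libraries. The secreted Frizzled-related genes Sfrp2 and Sfrp4 fell by 0.57 and 0.54 on the log2 scale (edgeR adjusted p = 0.0141 and 0.0479), the second no longer called in 3 alternatives. Notum, a secreted enzyme that removes the lipid from Wnt proteins and is itself a Wnt target, stood at 7.99, 4.02 and 4.19 CPM in WT and at 10.8, 9.18 and 10.3 CPM in KO. It was the antagonist that rose, with a log2 fold change of 0.89 (SE 0.24, edgeR adjusted p = 0.0108). WT 1 was the highest WT library for Notum as for Wnt8a.

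Inside the cell, 3 of 19 cytoplasmic components and 4 of 14 tested nuclear cofactors were called. Gsk3b, the kinase that CHIR99021 inhibits, was higher in KO at 34.7 ± 2.36 CPM in WT and 46.9 ± 3.60 CPM in KO (SD, n = 3; log2 fold change 0.43, edgeR adjusted p = 0.0104). The median of the 56 genes tested within 5 Mb of it was 0.58. Amer1, which brings APC to the membrane, was called higher (0.28, edgeR adjusted p = 0.0871) and Axin1, the main scaffold of the destruction complex, lower (−0.28, edgeR adjusted p = 0.0939), and these calls were lost in 8 and 7 of 14 alternatives. Among the cofactors, Tle5, the short member of the Groucho (TLE) family, stood at 34.0, 33.7 and 32.6 CPM in WT and at 14.6, 17.3 and 21.3 CPM in KO. It was lower by a log2 fold change of −0.91 (SE 0.14, edgeR adjusted p = 1.3e-04). Chd8, a chromatin remodeller that binds β-catenin, was higher (0.51, edgeR adjusted p = 0.00116). Crebbp, a histone acetyltransferase, was called higher (0.35, edgeR adjusted p = 0.0364, neighbours' median 0.55) and the co-repressor Ctbp1 lower (−0.29, edgeR adjusted p = 0.0463), calls lost in 4 and 3 alternatives.

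Of 10 further target genes 6 were tested, and 1 was higher and 1 lower in KO. Tnfrsf19 (TROY) stood at 6.19, 7.57 and 8.32 CPM in WT and at 19.4, 14.3 and 21.6 CPM in KO, a log2 fold change of 1.32 (SE 0.19, edgeR adjusted p = 5.4e-05). Ccnd1, which encodes cyclin D1, stood at 238, 254 and 262 CPM in WT and at 150, 213 and 162 CPM in KO, a log2 fold change of −0.52 (SE 0.12, edgeR adjusted p = 0.00345). Both are targets of several pathways. The streak gene T had 3 to 6 counts in the WT libraries and 1 to 4 in the KO libraries and was not tested. The other tested targets did not pass the test.

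Naïve genes that TCF7L1 is known to bind and repress were counted as a further list. Of 6 such genes, all tested, 3 were called, all higher in KO: Nanog at 39.4 ± 3.72 CPM in WT and 66.4 ± 6.31 CPM in KO, Esrrb at 15.9 ± 1.06 and 41.7 ± 9.79 CPM, and Klf2 at 3.66 ± 0.659 and 12.1 ± 2.83 CPM (SD, n = 3). Their log2 fold changes were 0.75, 1.39 and 1.71 (edgeR adjusted p = 1.1e-04, 5.3e-06 and 2.5e-05). Nanog lies on chromosome 6, where the median of the 101 genes tested within 5 Mb of it was −0.07. Tfcp2l1, Nr0b1 and Tbx3 had log2 fold changes of 0.10, 0.24 and −0.12 and did not pass the test. Over all genes tested, 24.3% were called, with 11.8% higher in KO. The list was drawn up with earlier results of these data known, and the study itself reported Nanog, Esrrb and Klf2 as higher in KO. Its count therefore cannot be read as an enrichment of TCF7L1 targets. Whether the level of Tcf7l1 bears on any of these genes was not tested. Among 8 primitive streak genes, many of which Wnt signals turn on, 2 were tested. Eomes stood at 5.82, 5.38 and 5.07 CPM in WT and at 10.3, 8.25 and 11.3 CPM in KO and was called higher (0.87, edgeR adjusted p = 0.00344), and Fgf8 had 0.45 (SE 0.39) and did not pass the test.

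Genes annotated across the members could add reads to some of them or take reads from them. The sources used here do not say whether the authors counted by strand or how reads over overlapping genes were assigned. Ulk4, on the opposite strand to Ctnnb1, had 40 to 74 counts per library beside 14000 to 17065 for Ctnnb1. Within Tcf7l1, the provisional models Gm37969 and Gm37736 on the same strand had 11 to 33 and 9 to 43 counts, against 55 to 96 for Tcf7l1 itself, and their reads were counted apart from it.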

How the data were processed

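The deposited table held raw counts per gene, 1 column per library. The authors checked reads with FastQC, trimmed them with Fastp and ran STAR in two-pass mode on GRCm39, which also gave the counts per gene. The annotation release and the treatment of reads with several matches are not given in the sources used here. Of 55416 Ensembl identifiers, 54749 were matched to GENCODE M39 for names, positions and exon lengths. Library totals ran from 10995505 to 14680930.

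Counts were tested in R 4.3.3 with edgeR 4.0.16 (TMM, filterByExpr with a minimum count of 10, quasi-likelihood test without robust estimation, genotype as the only term), with Benjamini-Hochberg adjustment over 15746 genes and a threshold of 0.1. The common dispersion was 0.0137. Standard errors were derived from each log2 fold change and its quasi-likelihood F statistic, so they carry the spread between libraries as well as the depth. Alternatives were DESeq2 1.42.0, other normalizations and filters, a replicate block, a threshold of 0.05 and each library left out in turn. Members, lists and tests were chosen with earlier results of these data known. Genes named were all members, up to 4 called genes of each pathway list with the smallest p, up to 4 of the naïve and streak lists, and marker genes by count; genes named beyond these, Fzd7, Lrp5, Lrp6 and Ulk4 among them, were chosen after their values were seen.

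Pairing was checked on deviations from group means over 13878 genes. The correlation was 0.240, 0.298 and 0.118 between same-numbered WT and KO libraries and −0.221 to −0.0294 between libraries of different numbers. Deviations from a mean cancel within a group, so these correlations are not independent of each other. The numbers were taken to pair the libraries, which the series' design text calls paired without saying by what. The main fit still had genotype as its only term, since the study's RNA-seq methods name no block, and the block was run as an alternative.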

Additional observations from a re-analysis of the deposited data

How the results depend on the processing

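The 1 member called became 0 with DESeq2, without a filter on low counts, with DESeq2 and a replicate block, and at a threshold of 0.05, and it ran from 0 to 1 when each library was left out; the 1 left without WT replicate 1 was Dkk1 and not Tcf7l1. The edgeR fit with a replicate block also called 1 member, and it lost none of the calls named in the text, markers included. DESeq2 with a replicate block lost those of Tcf7l1, Fzd4, Sfrp4, Amer1, Axin1, Pdgfra and Thy1. The 18 pathway genes called stayed within 14 to 26 under every alternative, with 26 under the edgeR block, 14 under DESeq2 with the block and 14 to 18 when a library was left out, and the 3833 of all genes within 2989 to 4764. Log2 fold changes near 0 changed sign when a library was left out: Ctnnb1 to 0.01 without WT replicate 2, Lef1 to 0.10 without WT replicate 1 and 0.01 without KO replicate 1 (range −0.08 to 0.10 over the omissions), Tfcp2l1 to −0.03 without KO replicate 3 (range −0.03 to 0.19), Tbx3 to 0.14 without KO replicate 2 (range −0.44 to 0.14), Lrp5 to 0.03 without KO replicate 1 (range −0.26 to 0.03), Lgr4 to 0.02 without WT replicate 3 (range −0.16 to 0.02), and Wnt3 to −0.11, −0.06 and −0.42 without WT replicate 2, WT replicate 3 and KO replicate 1 (range −0.42 to 0.40). The cause was not tested. Depth limits Sp5, Dkk1, Wnt3 and Tcf7l2, which had at most 42 counts in a library.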
